A study of Mus musculus with 18 samples.

Results

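The genes described here are the Wnt ligands, their Frizzled receptors and the modulators around them in cultures of mouse dorsal root ganglia that form myelin. They were chosen by name, as every gene of a RefSeq table whose symbol is Wnt, Fzd, Sfrp or Dkk followed by a number, with Lrp5, Lrp6, Axin2, Lef1, Tcf7, Tcf7l1, Tcf7l2, Wif1, Rspo1 to Rspo3 and Lgr4 to Lgr6 added. The rule found 52 symbols, of which 51 had a probe on the array (the antisense transcript Fzd10os had none), against 20145 gene symbols on the array in all. A gene entered the tests if, on at least 1 of the days, all 6 arrays showed its probe well above background. That held for 35 members, and for 22851 features of the whole array.

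Explants came from pools of E13.5 embryos of the C57BL/6J strain, on matrigel, and had 12 days in growth medium before the experiment. RNA of the whole culture was taken at day 0, just before myelination medium was given, at day 10 (early myelination) and at day 22 (abundant mature sheaths). Each day had 3 batches, which are separate pools of embryos collected at different times, and 2 samples of each batch that the submitters call technical, so 6 single-colour arrays per day and 18 in all. No group was kept without the medium, so effects of the medium and of longer culture cannot be told apart, and in a bulk culture fewer cells of a type and less RNA per cell cannot be told apart either.

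Wnt proteins are secreted, lipid-modified signals that bind Frizzled receptors. Together with the co-receptors Lrp5 and Lrp6 they keep beta-catenin from being degraded, so that it enters the nucleus and acts with the factors Lef1, Tcf7, Tcf7l1 and Tcf7l2, and other Frizzled signals act on cell polarity without beta-catenin. R-spondins and their Lgr receptors raise the amount of Frizzled at the cell surface, while Sfrp proteins and Wif1 bind Wnt ligands outside the cell, and several Dkk proteins bind the co-receptors. In the peripheral nervous system the pathway is known from the neural crest, from which sensory neurons and Schwann cells arise, and from the regulation of myelin genes in Schwann cells.

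On the arrays 54.8 to 61.5% of 59305 spots were well above background, and 0 spots were saturated. Precision is limited by the number of batches, 3 per day. A level is the log2 intensity minus that of the array's 75th percentile, so a level of 0 lies at that percentile, and a level of a probe is set only against the same probe on other days. The deposited value table and the deposited array files disagree on which batch an array belongs to: 6 of 18 columns hold the array filed under that sample, and 12 hold the array of another sample of the same day. No array changes day. Differences between days were therefore tested with limma on 9 batch means under each assignment, and the words rose and fell are used only where the Benjamini-Hochberg adjusted p was below 0.05 with both assignments. Errors are standard errors with the batches of the array files, n = 3 batches per day, unless the value table is named. The value table gave larger errors for most members, such as 0.30 against 0.15 for Wnt6. Its errors were smaller only for Lrp5, Sfrp1, Tcf7l1, Wnt1, Wnt16 and Wnt5a. The median standard deviation between batches was 0.149 by the array files and 0.178 by the value table. Which assignment is right was not settled, so the printed errors may be too small. A test of differences between batches within a day, with the spread between the arrays of a batch as error, was added after the data were seen: by the value table limma called 1988 of 22826 features (8.71%), and by the array files 0 (at an unadjusted p below 0.05, 7363 and 1778). The printed errors thus come from the grouping in which that test called 0 features.

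Schwann cell, neuronal and fibroblast markers were present on all days, with summed levels of 8.78 to 9.69, 8.49 to 9.91 and 9.26 to 9.89 over the arrays. Of 10 Schwann cell markers 4 rose and 0 fell by day 10, and 4 rose and 1 fell by day 22. Of 12 fibroblast markers 2 rose and 2 fell by day 10, and 3 rose and 4 fell by day 22. Of 12 neuronal markers 0 passed by day 10 and 2 fell by day 22. Of 13 macrophage markers 2 rose by day 10 and 12 by day 22, and their summed level went from a range of 6.00 to 6.49 on day 0 to one of 7.03 to 8.81 on day 22. Of 14 cell cycle genes all 14 fell from day 0 to day 22, from 6.56 to 6.99 down to 4.56 to 5.12. In 2 arrays the markers stood apart. Array 2 of batch 1 on day 0 had a summed neuronal level of 8.49 against 9.43 to 9.65 on the other arrays of that day, and array 1 of batch 1 on day 22 had a summed melanocyte level of 3.72 against 5.6 to 6.38 (batches of the array files). Each call was also computed without either array.

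From day 0 to day 10, 3 of the 35 members rose, where 5.75% of all features did, and 4 fell, where 7.72% did. With the batches of the array files alone 4 were higher (11.4% of all features) and 10 were lower (17.8%). The value table's batches alone gave 4 lower, and 8 with the batch as a block. From day 0 to day 22, 6 rose (12.6% of all features) and 9 fell (18.6%), and with the batches of the array files alone 9 were higher (17.1%) and 10 were lower (27.3%). Between day 10 and day 22, 0 rose (0.481% of all features) and 1 fell (1.43%), and the array files alone gave 0 higher (4.19%) and 2 lower (5.43%). At an unadjusted p below 0.05 limma gave 5 members higher and 4 lower there, and 3 and 2 by the value table. The median difference of the members was -0.17 against -0.06 for all features at day 10, and -0.07 against -0.08 at day 22. Nothing particular to the members is read from these counts, and what follows is about which members they were. The counts of other gene lists below are likewise to be read beside these shares of all features.

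**Figure D1:**
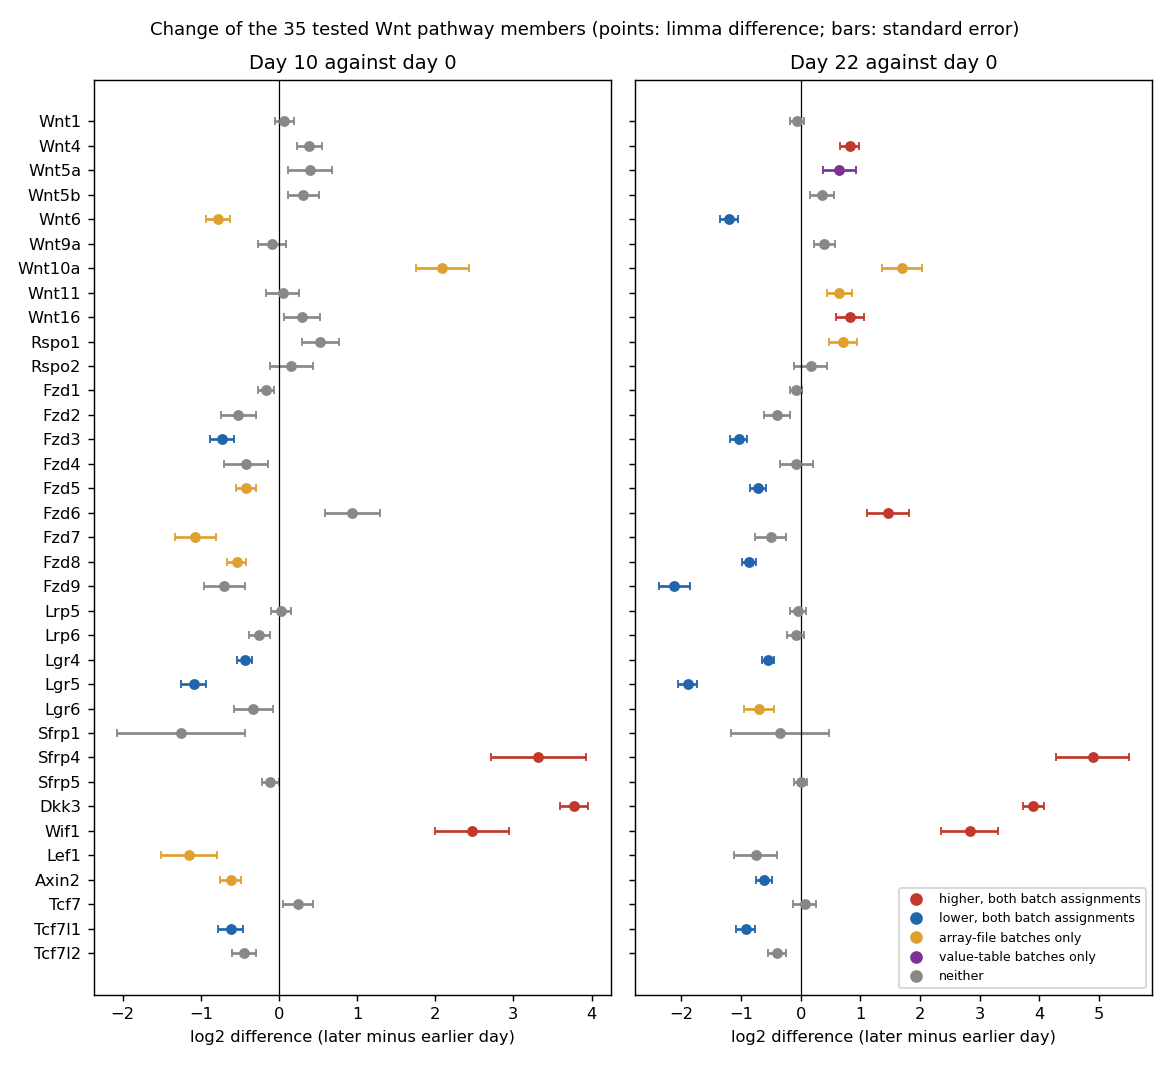
Log2 difference from day 0 to day 10 (left) and from day 0 to day 22 (right) for the 35 tested members, ordered by role from ligands at the top to nuclear factors at the bottom. Points are limma differences and bars standard errors over 3 batches per day, both with the batches of the array files, and colours give the batch assignments with which a member passed. Sfrp4, Dkk3 and Wif1 lie far to the right in both panels, and Fzd9 and Lgr5 farthest to the left at day 22.

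The largest rises among the members were those of 3 genes for secreted proteins. Dkk3, Sfrp4 and Wif1 were each higher at day 10 than at day 0, by 13.6-, 9.99- and 5.53-fold, and stayed high at day 22. These 3 were the only members that rose by day 10 under both batch assignments.

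Dkk3 encodes a divergent, secreted member of the Dickkopf family. Its level on the 6 arrays of day 0 ran from -0.24 through a median of 0.98 to 1.63, on day 10 from 4.17 through 4.47 to 4.97, and on day 22 from 4.17 through 4.70 to 5.07. Every array of both later days was thus above every array of day 0, and the later days overlapped each other. The log2 difference to day 10 was 3.77 ± 0.18 (limma adjusted p = 6.21e-05, and 0.00186 with an SE of 0.33 by the value table). At day 22 the difference from day 0 was 3.90 ± 0.18 (7.09e-06, and 0.000203 by the value table), a 14.9-fold difference. Within slide 1 and slide 2 alone, which each held arrays of all days, the difference to day 22 was 3.58 and 4.25. Other members of the family were too dim to test. Dkk1 was well above background on 3, 1 and 0 arrays of days 0, 10 and 22, Dkk2 on 2, 3 and 5, and Dkk4 on 0 arrays of any day.

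Sfrp4, a secreted Frizzled-related protein that binds Wnt ligands, ran from -2.26 through a median of -1.30 to -0.51 on day 0, from 1.1 through 1.96 to 3.04 on day 10 and from 1.34 through 3.40 to 6.31 on day 22. All later arrays were above all arrays of day 0, and the arrays of day 22 were spread the most widely. The difference to day 10 was 3.32 ± 0.61 (limma adjusted p = 0.00547, and 0.0476 by the value table), and that to day 22 was 4.89 ± 0.61 (0.00044, and 0.00545 by the value table), a 29.6-fold difference. Grouped as in the value table, the arrays of day 22 were 6.31 and 5.18 in batch 1, 3.81 and 2.99 in batch 2, and 1.34 and 1.72 in batch 3. Sfrp4 thus differed between those batches by more than between the arrays of a batch (limma F test between batches within days, adjusted p = 0.0105). Its difference to day 22 was 6.50 on slide 1 alone, where both arrays of day 22 came from batch 1 of the array files, and 4.40 on slide 2 alone, and it was 4.13 without batch 1 and 5.49 without batch 3 of day 22. The call at day 10 lay close to the threshold: the authors' normalized values, in the value table's batches, gave 3.36 (limma adjusted p = 0.0501). Without array 2 of batch 1 on day 0 the difference was 3.03 (0.0156, and 0.0552 by the value table).

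Wif1, the Wnt inhibitory factor, which also binds ligands outside the cell, ran from -2.32 through -0.95 to 0.71 on day 0, from 0.27 through 1.75 to 2.59 on day 10 and from 1.03 through 1.95 to 2.64 on day 22. Days 0 and 10 overlapped, and every array of day 22 was above every array of day 0. The difference was 2.47 ± 0.47 at day 10 (limma adjusted p = 0.00612, and 0.0389 by the value table) and 2.83 ± 0.47 at day 22 (0.00167, and 0.0113 by the value table). Without array 2 of batch 1 on day 0 the difference at day 10 was 2.07 and no longer passed (0.0523), while that at day 22 was 2.44 and did (0.0162).

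Not all Sfrp genes moved this way. Sfrp5, whose product also binds Wnt ligands, had medians of 4.16, 4.08 and 4.22 on the successive days and a difference of 0.00 ± 0.11 at day 22 (limma adjusted p = 0.978). Sfrp1 had a median of 0.22 on day 0 and -1.07 on day 10, and on day 22 its arrays ran from -2.57 to 1.98, a wider range than any other tested member had on any day except Sfrp4 on day 22. Its difference to day 10 was -1.25 ± 0.82 (limma adjusted p = 0.295), which missed the threshold. Sfrp2 exceeded background clearly on just 1 array, of day 22. Of the 10 tested antagonists outside the family names, Frzb, another secreted Frizzled-related protein, rose by 2.36 ± 0.34 at day 10 (limma adjusted p = 0.00217, and 0.0222 by the value table) and by 3.19 ± 0.34 at day 22. Shisa2, which holds Frizzled receptors inside the cell, fell by 0.77 at day 10 and by 1.14 at day 22, and Dkkl1 fell by 0.65 at day 22. The other tested genes of that list did not pass with both assignments. Beside these rises, 4 of 10 Schwann cell markers rose at both later days, and 1 fell by day 22. Fibroblast markers moved both ways: of 12, 2 rose and 2 fell by day 10, and 3 rose and 4 fell by day 22. Satellite glia markers did so too: of 7, 1 rose and 2 fell by day 10, and 2 rose and 1 fell by day 22. Macrophage markers (2 of 13 by day 10 and 12 by day 22) and tested melanocyte markers (2 of 4 at both later days) only rose. The part of these cell types in the rises of Dkk3, Sfrp4, Wif1 and Frzb was not tested.

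**Figure D2:**
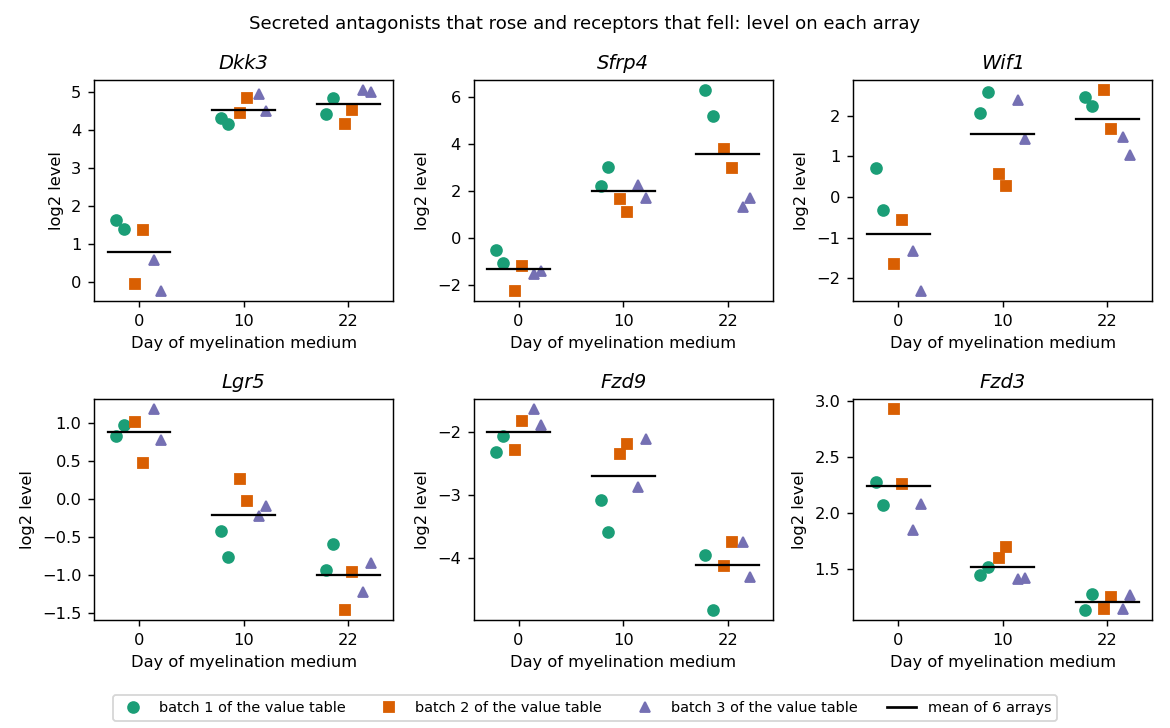
Log2 level relative to the array's 75th percentile on each of the 18 arrays (vertical axis, scaled per gene) by day of myelination medium, for the secreted Dkk3, Sfrp4 and Wif1 and the receptors Lgr5, Fzd9 and Fzd3. Symbols mark the batches of the value table and lines the mean of 6 arrays. The arrays of the later days lie above those of day 0 for Dkk3, Sfrp4 and Wif1, with an overlap at day 10 for Wif1. Lgr5, Fzd9 and Fzd3 lie below day 0 on every array of day 22.

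Of 9 tested Frizzled genes, 1 fell and 0 rose by day 10, where 7.72% of all features fell (at an unadjusted p below 0.05 limma gave 6 lower and 1 higher), and 4 fell and 1 rose by day 22, where 18.6% fell and 12.6% rose. The other 4 did not pass with both assignments. Fzd9 and Fzd3 had the largest falls, and Fzd6 was the gene that rose.

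Fzd9, a Frizzled receptor of neural precursors among other cells, ran from -2.31 through a median of -1.97 to -1.63 on day 0, from -3.59 through -2.60 to -2.11 on day 10 and from -4.83 through -4.04 to -3.74 on day 22. Every array of day 22 was below every array of both earlier days. At day 10 the difference from day 0 was -0.70 ± 0.26, which missed the threshold (limma adjusted p = 0.0724, and 0.119 by the value table, or 0.0457 there with the batch as a block). Fzd9 was the only member that fell between day 10 and day 22 under both assignments, by 1.42 ± 0.26 on the log2 scale (limma adjusted p = 0.0145, and 0.0443 by the value table). That call was lost without batch 1 of day 10 (-1.42, adjusted p = 0.0533) and without batch 2 of day 22 (-1.33, 0.0577). From day 0 to day 22 it fell by 2.12 ± 0.26, or 4.34-fold (0.000373, and 0.00109 by the value table), with -1.96 on slide 1 alone and -2.14 on slide 2 alone. The size of these falls depended on the background correction: with normexp, day 22 differed by -0.76 from day 10 and by -1.19 from day 0.

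Fzd3 encodes a receptor that guides axons through the planar polarity pathway. Its arrays ran from 1.85 through 2.17 to 2.93 on day 0, from 1.41 through 1.48 to 1.70 on day 10 and from 1.13 through 1.19 to 1.28 on day 22. The days did not overlap. It fell by 0.73 ± 0.15 by day 10 (limma adjusted p = 0.00815, and 0.0217 by the value table) and by 1.04 ± 0.15 by day 22 (0.000793, and 0.00203), and the step from day 10 to day 22, -0.31 ± 0.15, missed the threshold (0.218).

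Fzd8 and Fzd5 are receptors that can signal through beta-catenin. Fzd8 ran from 1.03 through 1.40 to 1.89 on day 0, from 0.75 through 0.86 to 1.1 on day 10 and from 0.02 through 0.62 to 0.74 on day 22. It fell by 0.87 ± 0.12 by day 22 (limma adjusted p = 0.000804, and 0.00542 by the value table), with no overlap of days 0 and 22. Its difference of -0.54 at day 10 passed with the array files (0.0132) and not with the value table (0.0605, or 0.0273 with the batch as a block). Fzd5 ran from -2.36 through -2.06 to -1.55 on day 0, from -2.68 through -2.44 to -2.30 on day 10 and from -2.99 through -2.76 to -2.50 on day 22. It fell by 0.71 ± 0.13 by day 22 (0.00312, and 0.00627), while its dimmer second probe gave a difference of only -0.19. At day 10 the difference of Fzd5 was -0.42, which passed with the array files (0.0434) and not with the value table (0.0737).

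Fzd6, which takes part in planar polarity in the skin, was among the dimmer members, well above background on 5, 6 and 6 arrays of the successive days. It ran from -5.17 through -4.68 to -3.92 on day 0, from -4.43 through -3.61 to -2.64 on day 10 and from -3.56 through -3.28 to -2.08 on day 22. Every array of day 22 was above every array of day 0. At day 10 its difference was 0.94 ± 0.35 (limma adjusted p = 0.078). It rose by 1.46 ± 0.35, or 2.75-fold, by day 22 (limma adjusted p = 0.0104, and 0.0237 by the value table). With normexp background correction the difference was 0.61, and on slide 1 alone it was 2.07.

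Fzd7 ran from -0.67 through -0.36 to 0.25 on day 0, from -1.81 through -1.36 to -0.73 on day 10 and from -1.30 through -1.05 to 0.37 on day 22. All arrays of day 10 were below all of day 0, yet the difference of -1.07 ± 0.26 passed with the array files (limma adjusted p = 0.0177) and not with the value table (0.0737, or 0.0177 with the batch as a block), and at day 22 the difference was -0.50 (0.16). Its second probe gave -0.57 at day 10. Fzd1, Fzd2 and Fzd4 passed in no comparison, with differences of -0.08, -0.40 and -0.07 at day 22. Fzd10 was well above background on 4, 2 and 2 arrays of the successive days and was not tested.

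The co-receptors Lrp5 and Lrp6 passed in no comparison. Lrp5 had medians of 1.44, 1.58 and 1.55 on the successive days, and its difference at day 22 was -0.04 ± 0.13 (limma adjusted p = 0.815). Lrp6 had medians of 3.81, 3.45 and 3.60, and its difference at day 22 was -0.08 ± 0.14 (0.664). Of 14 other tested genes grouped with co-receptors and alternative receptors, 1 rose and 4 fell by day 10. By day 22, 1 rose and 5 fell, where 18.6% of all features fell (7.72% by day 10). The gene that rose was Kremen1, a receptor for Dkk proteins, by 1.12 ± 0.12 at day 10 (limma adjusted p = 0.00065, and 0.00476 by the value table) and 0.91 ± 0.12 at day 22. Mcc, which is in this group but is not described here as a receptor, fell by 0.84 at day 10 and by 1.06 at day 22. The glypicans Gpc4 and Gpc6 are heparan sulfate proteoglycans at the cell surface. Gpc4 fell by 0.91 at day 10 and Gpc6 by 1.07 at day 22, the latter with overlap of the arrays. Between day 10 and day 22, Sdc1, a syndecan, rose by 0.62 ± 0.14 (0.0311, and 0.0211 by the value table).

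Of the receptors for R-spondins, Lgr5 and Lgr4 fell, and Lgr6 did not pass with both assignments. Lgr5, a marker of stem cells in several epithelia, ran from 0.48 through a median of 0.90 to 1.19 on day 0, from -0.77 through -0.16 to 0.27 on day 10 and from -1.47 through -0.96 to -0.59 on day 22. Both later days were wholly below day 0, and days 10 and 22 overlapped. Lgr5 fell by 1.09 ± 0.16 by day 10 (limma adjusted p = 0.00246, and 0.0122 by the value table) and by 1.89 ± 0.16, or 3.70-fold, by day 22 (7.62e-05, and 0.000377), with -2.22 on slide 1 alone and -1.81 on slide 2 alone. The step between the later days was -0.80 and passed with the array files only (0.0226, and 0.0827 by the value table).

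Lgr4 is the more widely expressed of these receptors. It ran from -1.45 through -1.29 to -0.83 on day 0, from -1.82 through -1.65 to -1.46 on day 10 and from -1.91 through -1.74 to -1.52 on day 22, so that both later days lay just below day 0. It fell by 0.44 ± 0.10 by day 10 (limma adjusted p = 0.0115, and 0.0441 by the value table) and by 0.54 ± 0.10 by day 22 (0.00268, and 0.0108). On slide 1 alone the difference at day 22 was -0.85, and on slide 2 alone it was -0.31. Without array 2 of batch 1 on day 0 the call at day 10 was lost with the value table (-0.36, adjusted p = 0.0303, and 0.0803 by the value table). Lgr6, well above background on 6, 6 and 5 arrays, had medians of -3.67, -4.11 and -4.18, and its difference of -0.70 at day 22 passed with the array files (0.0472) and not with the value table (0.162).

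None of the ligands of these receptors passed with both assignments. Rspo1 had medians of -0.07, 0.70 and 0.72, and its difference of 0.71 ± 0.24 at day 22 passed with the array files (limma adjusted p = 0.0454) and not with the value table (0.183). Rspo2 had medians of -2.08, -2.10 and -2.47 and passed in no comparison, and Rspo3 was well above background on 4, 4 and 5 arrays and was not tested. Of the ligases that remove Frizzled from the surface, Znrf3 fell by 0.74 ± 0.13 by day 22 (0.00231, and 0.0319 by the value table), and Rnf43 did not pass the filter.

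Of the 19 Wnt genes 9 could be tested, and 0 passed by day 10 under both assignments (at an unadjusted p below 0.05 limma gave 2 higher and 1 lower by the array files, and 1 and 1 by the value table). By day 22, Wnt4 and Wnt16 rose and Wnt6 fell, where 12.6% of all features rose and 18.6% fell. The untested ones were near background: Wnt2, Wnt3a, Wnt8a and Wnt10b were well above it on 0 of 18 arrays, Wnt3 on 0, 1 and 0 arrays of the successive days, Wnt7b on 0, 2 and 0, Wnt8b on 1, 0 and 0, Wnt7a on 1, 0 and 3, Wnt2b on 2, 3 and 1, and Wnt9b on 4, 2 and 2.

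Wnt6, a ligand of the surface ectoderm and neural crest in the embryo, ran from 1.69 through a median of 1.82 to 2.78 on day 0, from 0.94 through 1.30 to 1.70 on day 10 and from 0.21 through 0.86 to 1.58 on day 22. Every array of day 22 was below every array of day 0. It fell by 1.2 ± 0.15 by day 22, or 2.29-fold (limma adjusted p = 0.000461, and 0.0186 with an SE of 0.30 by the value table), with -1.17 on slide 1 alone and -1.34 on slide 2 alone. At day 10 the difference was -0.78, which passed with the array files (0.00686) and not with the value table (0.119).

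Wnt16 and Wnt4 are ligands studied in bone and kidney. Wnt16 ran from -3.93 through -3.50 to -3.25 on day 0, from -3.53 through -3.27 to -2.88 on day 10 and from -3.20 through -2.64 to -2.06 on day 22. It rose by 0.83 ± 0.23 by day 22 (limma adjusted p = 0.0184, and 0.00533 by the value table), its dimmer second probe gave 1.52, and the call was lost without batch 1 of day 0 (0.68, 0.0624). On slide 1 alone the difference of Wnt16 was 1.35, and on slide 2 alone it was 0.55. Wnt4, well above background on 5, 6 and 6 arrays, ran from -5.58 through -5.08 to -4.52 on day 0, from -4.97 through -4.71 to -4.13 on day 10 and from -4.84 through -4.15 to -3.88 on day 22. It rose by 0.82 ± 0.16 by day 22 (0.00367, and 0.0109 by the value table), although the arrays of days 0 and 22 overlapped. The difference of Wnt4 was 0.80 on slide 1 alone and 0.54 on slide 2 alone, and passed on neither. Its lowest value over all alternatives was 0.29.

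Wnt10a had the largest difference of the ligands, but not with both assignments. It ran from -3.58 through -2.06 to -1.06 on day 0, from -1.08 through -0.02 to 0.64 on day 10 and from -2.18 through -0.48 to 1.05 on day 22. The difference at day 10 was 2.09 ± 0.34 with the array files (limma adjusted p = 0.00325) and 2.09 ± 0.73 with the value table (0.0935), and at day 22 it was 1.70 (0.00406, and 0.11 by the value table). In the batches of the value table the arrays of day 0 were -3.58 and -3.15, then -1.06 and -2.06, then -1.46 and -2.07, so that batch 1 lay apart from the others (F test between batches within days, adjusted p = 0.0154).

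Wnt5a, a ligand that acts mainly without beta-catenin, had medians of -0.28, 0.10 and 0.35, and its difference of 0.65 ± 0.28 at day 22 passed with the value table (limma adjusted p = 0.0413) and not with the array files (0.0883). Wnt11 had medians of -4.10, -4.12 and -3.88 and a difference of 0.65 at day 22 that passed with the array files only (0.0324, and 0.0632 by the value table). On day 22, 1 array of Wnt11 stood at -2.07 and the others ran from -3.98 to -3.16. Wnt1, Wnt5b and Wnt9a passed in no comparison, with differences of -0.06, 0.36 and 0.40 at day 22. For Wnt1, which marks the dorsal neural tube, the brighter probe had a mean of 0.42 on day 0 and was well above background on 18 arrays, whereas its second probe was so on 0 arrays, so the probes do not settle whether Wnt1 was present.

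Of 7 genes of the machinery that makes and secretes Wnt proteins, 1 rose by day 10 and 2 by day 22, and 0 fell. Porcn, which attaches the lipid to Wnt proteins, rose by 0.49 ± 0.13 at day 10 (limma adjusted p = 0.0251, and 0.0414 by the value table), and at day 22 its difference was 0.35 (0.0599). Wls, which carries them to the surface, had a difference of 0.34 at day 10 (0.216) and rose by 0.78 ± 0.19 by day 22 (0.0112, and 0.0411 by the value table). Tmed5, a cargo receptor of the early secretory pathway, rose by 0.46 at day 22.

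**Figure D3:**
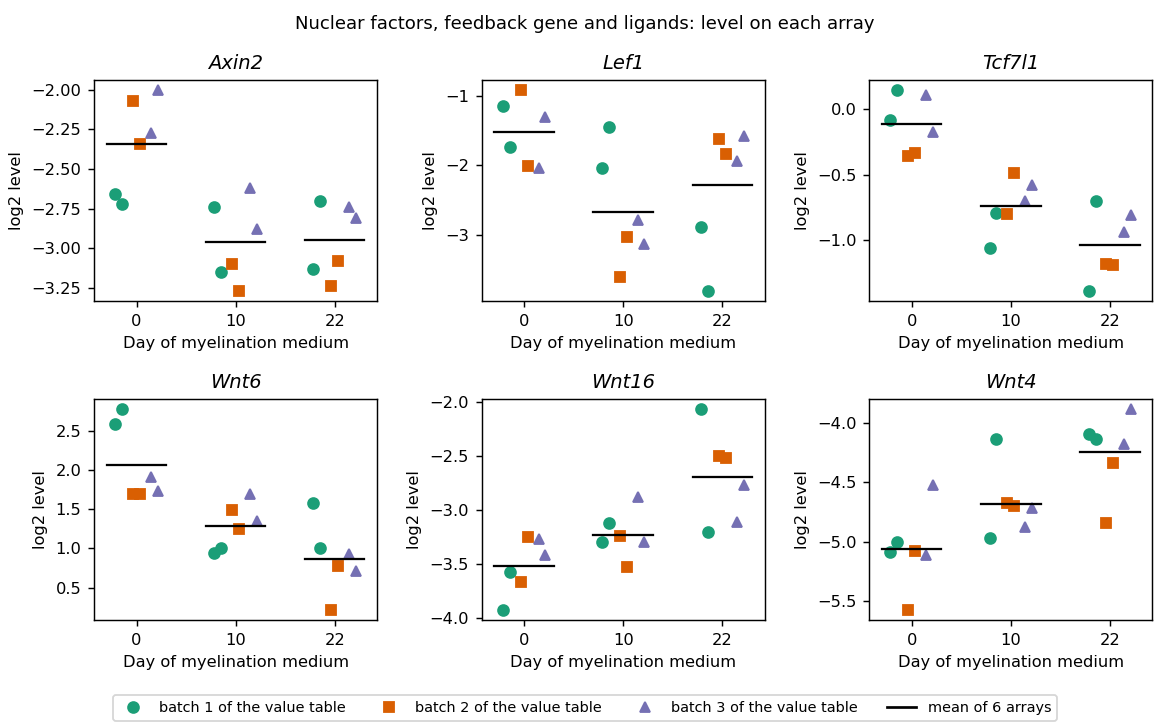
Log2 level relative to the array's 75th percentile on each of the 18 arrays (vertical axis, scaled per gene) by day of myelination medium, for Axin2, Lef1, Tcf7l1, Wnt6, Wnt16 and Wnt4. Symbols mark the batches of the value table and lines the mean of 6 arrays. Tcf7l1 and Wnt6 on day 22 lie below all arrays of day 0, Wnt16 lies above, and the arrays of Lef1 are spread over more than 2 log2 units on days 10 and 22.

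Axin2, a negative feedback gene of the beta-catenin pathway that is often used as its readout, ran from -2.72 through a median of -2.30 to -2.0 on day 0, from -3.27 through -2.99 to -2.62 on day 10 and from -3.24 through -2.95 to -2.70 on day 22. Both later days overlapped day 0 by a narrow margin. It fell by 0.61 ± 0.13 by day 22 (limma adjusted p = 0.0069, and 0.0357 by the value table). Without array 1 of batch 1 on day 22 the difference was -0.62 and passed with the array files (0.00779) but not with the value table (0.0615). At day 10 it was -0.62, which passed with the array files (0.0109) and not with the value table (0.0584, or 0.0445 with the batch as a block). The second probe of Axin2, close to background, gave -0.25 at day 10 and -0.88 at day 22.

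Tcf7l1, the factor of the family that acts mostly as a repressor, ran from -0.36 through -0.12 to 0.15 on day 0, from -1.06 through -0.74 to -0.49 on day 10 and from -1.39 through -1.06 to -0.70 on day 22. Both later days were wholly below day 0. It fell by 0.62 ± 0.16 by day 10 (limma adjusted p = 0.0213, and 0.0258 by the value table) and by 0.92 ± 0.16 by day 22 (0.00219, and 0.00221). The call at day 10 was lost without batch 2 of day 0 (-0.50, adjusted p = 0.0623), without batch 1 of day 10 (-0.53, 0.0763) and without batch 2 of day 10 (-0.62, 0.0631).

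Lef1, a factor that mediates activation by beta-catenin, ran from -2.03 through -1.52 to -0.91 on day 0, from -3.60 through -2.91 to -1.45 on day 10 and from -3.81 through -1.89 to -1.57 on day 22. The days overlapped. Its difference at day 10 was -1.15 ± 0.36, which passed with the array files (limma adjusted p = 0.0449) and not with the value table (0.163), and at day 22 it was -0.75 (0.126). Tcf7l2, a factor known to act in oligodendrocytes, had medians of -1.12, -1.46 and -1.37. Its difference of -0.45 ± 0.15 at day 10 missed the threshold (0.0534), and its dimmer other probes gave -0.17 and 0.03. Tcf7 had medians of -2.26, -2.26 and -2.32 and passed in no comparison.

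Ctnnb1, which encodes beta-catenin, had differences of -0.09 ± 0.08 at day 10 (limma adjusted p = 0.487) and 0.00 ± 0.08 at day 22 (0.975). Of the 24 genes of the destruction complex and its Dishevelled partners, Ctnnb1 included, 0 rose and 5 fell by day 10. By day 22, 0 rose and 11 fell. The medians were -0.24 and -0.37. Among all features 7.72% fell by day 10 and 18.6% by day 22, and whether the list differed from them was not tested. At day 10 the largest falls were those of Nkd2 (0.80), Amer1 (0.57) and Tnks (0.51). The largest falls at day 22 were those of Frat2 (1.18), which binds the kinase Gsk3, Amer1 (1.16), which recruits the complex to the membrane, and Apc2 (1.05), a neuronal relative of Apc. Amer1 was also the gene of the list that fell between day 10 and day 22, by 0.58. Of 15 genes listed with the nuclear cofactors of beta-catenin, 0 passed by day 10 and 3 fell by day 22. These were Tle4 (0.68), Smarca4 (0.45) and Ctnnbip1 (0.33). The list does not separate genes that help beta-catenin from genes that oppose it.

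Of 19 genes often used as targets of beta-catenin, 2 rose and 3 fell by day 10. By day 22, 2 rose and 5 fell, where 12.6% of all features rose and 18.6% fell. Sp5, a transcription factor that is a direct target in many tissues, rose by 2.37 ± 0.33 by day 10 (limma adjusted p = 0.00182, and 0.00279 by the value table) and by 1.98 ± 0.33 by day 22. Tbx3 fell by 1.47 and Msx1 by 0.92 at day 10. At day 22 the largest falls were those of Tnfrsf19 (1.15), with overlap of the arrays, and Msx1 (0.76). The list therefore held genes that moved in both directions, and its median was -0.03 at day 10 and -0.01 at day 22.

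Of 21 genes of planar cell polarity, which include Fzd3 and Fzd6, 0 rose and 3 fell by day 10, and 1 rose and 6 fell by day 22. The shares of all features that fell were 7.72% and 18.6%. Celsr1, a large cadherin at polarised junctions, fell by 0.94 ± 0.17 at day 10 (limma adjusted p = 0.00485, and 0.017 by the value table) and by 1.70 ± 0.17 at day 22. Vangl1, a core membrane protein of the pathway, fell by 0.85 at day 10 and by 0.94 at day 22. The 14 cell cycle genes fell beside these receptors and polarity genes. By day 22, 4 of 12 fibroblast markers fell and 3 rose, and 2 of 12 neuronal markers fell and 0 rose. Of 7 perineurial and barrier markers 1 fell and 0 rose. Their summed level ranged from 7.28 to 7.79 on day 0 and from 6.63 to 7.19 on day 22. The part of any of these lists in the falls of the receptors and polarity genes was not tested.

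Some members varied between batches of the same day. By the value table, 8 of the 35 members differed between batches within days (limma F test, adjusted p below 0.05), where 8.71% of all features did, and by the array files 0 did (17 and 6 at an unadjusted p below 0.05). Besides Sfrp4 and Wnt10a these were Tcf7 (adjusted p = 0.011), Lgr6 (0.0186), Wnt9a (0.0222), Fzd4 (0.0297), Wnt6 (0.036) and Fzd7 (0.0449). Tcf7 on day 0 was -3.07 and -3.46 in batch 1 of the value table, against -2.44 to -1.96 on the other arrays. Sfrp1 was not among them: on day 22 its arrays were 1.98 and 0.99 in batch 1, 0.19 and -2.27 in batch 2, and 0.97 and -2.57 in batch 3, so that its spread lay within batches of the value table.

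**Figure D4:**
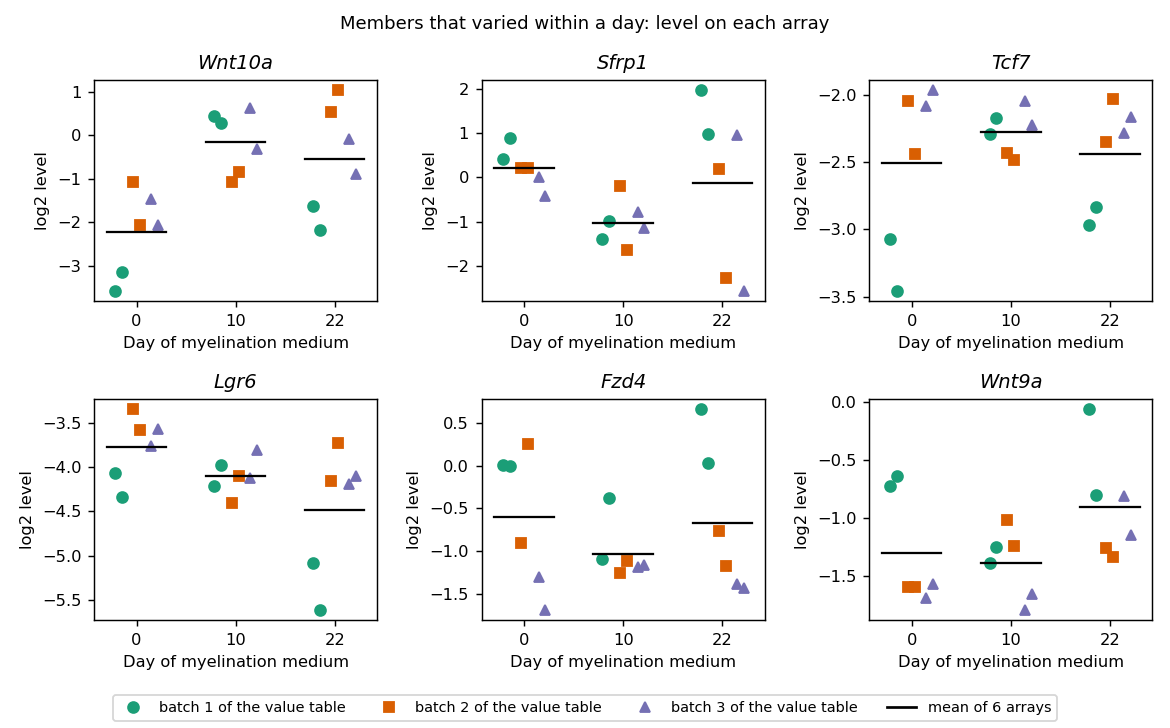
Log2 level relative to the array's 75th percentile on each of the 18 arrays (vertical axis, scaled per gene) by day of myelination medium, for Wnt10a, Sfrp1, Tcf7, Lgr6, Fzd4 and Wnt9a. Symbols mark the batches of the value table and lines the mean of 6 arrays. For Wnt10a, Tcf7 and Lgr6 both arrays of batch 1 lie low on day 0 and day 22, whereas the arrays of Sfrp1 on day 22 are split within batches 2 and 3.

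Because the members share a pathway whose nuclear factors bind the letters CTTTGAT, RefSeq's promoter table (GRCm38.p6) was searched for them on both strands. Each window searched held 250 bases before the start of a gene and 50 bases after it. The letters stood in 2 of 42 windows of members (4.76%) and in 1225 of 32851 windows of all genes (3.73%). The 42 windows belong to 34 members, of which 22 are among the 35 tested. Tested members without an entry, and so not searched, include Dkk3, Sfrp4, Lgr5, Fzd3, Fzd6, Fzd8 and Wnt10a. A match is a description of the letters only. The windows with a match, chosen after the search, were those of Wnt5b (chr6:119449424-119449484, minus strand, match starting at -71) and Wnt11 (chr7:98835034-98835094, plus strand, match starting at -51 on the other strand). They are shown as the stretch around the match, with the match in capitals.
Wnt5b: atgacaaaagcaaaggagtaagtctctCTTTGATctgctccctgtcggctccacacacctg
Wnt11: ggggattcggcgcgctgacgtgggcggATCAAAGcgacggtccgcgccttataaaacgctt

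For the feedback gene Axin2 (chr11:108920099-108920348, plus strand), for Lef1 (the first of 4 windows, chr3:131110047-131110296, plus strand) and for the most changed members with an entry, Wif1 (chr10:121033754-121034003, plus strand) and Fzd9 (chr5:135251048-135251297, minus strand), the whole window before the start is shown. These windows hold no match and so no capitals.
Axin2: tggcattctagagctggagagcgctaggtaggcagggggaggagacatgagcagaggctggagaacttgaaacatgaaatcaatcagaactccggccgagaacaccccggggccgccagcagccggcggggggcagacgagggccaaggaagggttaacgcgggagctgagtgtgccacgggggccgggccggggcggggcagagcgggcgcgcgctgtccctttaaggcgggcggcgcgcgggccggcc
Lef1: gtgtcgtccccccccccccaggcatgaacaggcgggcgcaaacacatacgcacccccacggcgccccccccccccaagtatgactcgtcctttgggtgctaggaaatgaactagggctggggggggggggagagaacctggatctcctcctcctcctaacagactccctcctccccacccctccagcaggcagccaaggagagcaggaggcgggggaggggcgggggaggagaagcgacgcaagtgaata
Wif1: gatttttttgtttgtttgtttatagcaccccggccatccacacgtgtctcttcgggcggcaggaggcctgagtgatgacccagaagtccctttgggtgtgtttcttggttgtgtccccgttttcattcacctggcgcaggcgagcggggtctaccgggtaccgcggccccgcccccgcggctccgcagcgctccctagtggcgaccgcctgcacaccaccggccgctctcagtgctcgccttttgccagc
Fzd9: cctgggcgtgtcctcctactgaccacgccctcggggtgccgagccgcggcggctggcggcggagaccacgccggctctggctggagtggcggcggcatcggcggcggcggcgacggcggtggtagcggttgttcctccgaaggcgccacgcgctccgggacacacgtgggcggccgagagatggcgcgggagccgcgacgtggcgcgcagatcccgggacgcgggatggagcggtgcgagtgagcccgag

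Over the 250 bases before the start, the windows of Axin2, Wif1 and Fzd9 are rich in G and C, at 69.2, 62.8 and 76.4%. Fzd9 holds 42 CpG pairs there. The median over the 42 windows of members was 66.6% and 20.5 CpG pairs, against 52.4% and 6 over all 32851 windows.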

How the data were processed

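Total RNA of 18 samples, 100 ng each per the labels, was measured on single-colour Agilent arrays. Per the file headers, the deposited intensity of each spot was background-subtracted by Agilent's software, version 10.7.1.1, on a design of build mm9. Other columns that the authors deposited hold 0 or 1 flags of that software, such as well above background and outlier. A table of normalized intensity, also deposited, was an alternative; how it was normalized is not given in the sources used here.

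Levels are log2 intensity minus the array's 75th percentile over spots that were not controls. Outlier spots (93 to 181 per array) were left out. Probes were named through accessions of a RefSeq table (GRCm38.p6, another build, so its gene coordinates were not used). 26582 of 55681 probes matched, and the brightest kept probe stood for a gene. The means over the arrays of each batch on each day were fitted with limma 3.58.1 (lmFit, eBayes; R 4.3.3), days as groups, with Benjamini-Hochberg adjustment over 22851 features. The fit was tested on simulated data. The batch number used here is the mouse number in the sample titles. These titles do not say whether a number marks the same pool on every day. Between days, samples with the same batch number had deviations correlated at -0.13 to 0.37 (6 of 9 above 0.1). By the value table the correlations were -0.08 to 0.46 (8 of 9). The main fit left this pairing out, and the replicate block, an alternative, took it into account.

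Members named in full are those past the threshold in any comparison, with Axin2, Lef1, Tcf7l2, Lrp5 and Lrp6; of other pathway lists, at most the 3 largest calls per comparison, with Ctnnb1, Wls and Porcn. The members and lists were chosen with earlier results of these data known. Normexp background correction, an alternative, used median signals. Alternatives are given in the closing section. Proteins were not used here.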

Additional observations from a re-analysis of the deposited data

Results flagged for a closer look

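In 4 of 105 groups of 6 arrays (35 members on 3 days) a single array lay far from the other arrays of its day. Chance alone marks about 1 in 20 such groups. Batches here are those of the array files.

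Fzd1 on day 0 was 4.13 on array 2 of batch 1, against 3.68 to 3.78 on the other arrays. Fzd8 on day 22 was 0.02 on array 1 of batch 1, against 0.60 to 0.74. These arrays are those whose neuronal and melanocyte markers stood apart. Fzd4 on day 10 was -0.38 on array 2 of batch 2, against -1.25 to -1.09, and Wnt4 on the same array was -4.13, against -4.97 to -4.67. The cause was not tested.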

How the results depend on the processing

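In all 22 alternatives no called difference changed direction. The 23 calls made with both batch assignments were followed through the alternatives with 1 test each. It used the array files' batches, unless the alternative names the value table or takes the authors' values. The authors' values were grouped by the value table's batches, so that alternative changed normalization and batches together. In that test 18 stayed past the threshold in all 20 alternatives other than single slides, 16 on slide 1 alone and 11 on slide 2 alone, where each array counts as a value. Among the 20, the value table's batches could lose no call, since passing with them was part of making a call. By the value table, Axin2 at day 22 was also lost without array 1 of batch 1 on day 22, and Lgr4 and Sfrp4 at day 10 without array 2 of batch 1 on day 0.

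Members higher at day 10 than at day 0 numbered 4, and 2 with the authors' values, 2 on slide 1 and 1 on slide 2. Members lower numbered 10, and 4 by the value table's batches, 4 by the authors' values in those same batches, and 1 on either slide. They numbered 6 without array 2 of batch 1 on day 0. Leaving out a replicate gave 6 to 10 (6 without batch 1 of day 10). At day 22 against day 10, 0 were higher, and 2 with the replicate block, 2 with a slide block and 0 to 3 when a replicate was left out. There 2 were lower, and 1 with the value table's batches, with or without the replicate block, 1 with the authors' values, 0 on either slide and 0 to 3 when a replicate was left out. At day 22 against day 0, 9 were higher and 10 lower, and 3 and 6 on slide 2 alone. With the array files' batches the replicate block moved no other count by over 1.5 times. With those of the value table it moved the members lower at day 10 from 4 to 8, Axin2, Fzd7, Fzd8 and Fzd9 being those added, and no other count by over 1.5 times. The cause of these shifts was not tested. Leaving out arrays that stood apart was chosen after seeing the data. Without array 2 of batch 1 on day 0, 1 member rose and 3 fell by day 10 under both assignments, in place of 3 and 4. Signal close to background limits what can be said of Fzd6, Wnt4, Lgr6, Wnt11 and, on day 22, Fzd9. With normexp the difference of Fzd9 at day 22 was -1.19 in place of -2.12, and that of Fzd6 was 0.61 in place of 1.46.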
